A study of Mus musculus with 9 samples.

Results

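The comparison was between spinal cords of mice given an antisense oligonucleotide (ASO) against C9orf72 and spinal cords of mice given a control ASO, gene by gene. It covered 14277 of the 14831 genes in the table, namely those at 0.5 RPKM or more in at least 3 of the 6 libraries compared (RPKM is the number of reads, scaled to the length of the transcript and to the depth of the library). Of the 6 libraries, 3 were from mice given the C9orf72 ASO, numbered 571883 in the labels, and 3 from mice given the control ASO, numbered 456835. A further 3 libraries came from mice given saline and served to estimate the spread and to show levels without an oligonucleotide. All animals were wild-type female C57Bl/6 mice aged 10 weeks, except that 1 control ASO sample (replicate 3) carries no strain in its labels. Each received 10 µl into the right lateral ventricle, with 500 µg of oligonucleotide in the ASO groups, and the spinal cord was taken 2 weeks later. These mice carry no repeat expansion and keep both copies of the gene, so that the model is one of lowered C9orf72 RNA over a short time in an adult. Whether each library is from its own animal is not in the labels, so p-values measure the spread between these samples.

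An ASO of this kind is a short modified strand of nucleic acid that pairs with its target RNA, and the pairing can lead the nuclear enzyme RNase H1 to cut that RNA. The C9orf72 protein forms a complex with SMCR8 and WDR41 that acts on small GTPases and takes part in autophagy and in the function of lysosomes. An expanded repeat in the human gene underlies many familial cases of amyotrophic lateral sclerosis (ALS) and frontotemporal dementia (FTD), and in mice lacking the gene altogether the best known changes are in immune cells, microglia among them. The control ASO group received the same injection and dose, with another oligonucleotide. Each group was given a single oligonucleotide. Lowered C9orf72 RNA and any other effect of either oligonucleotide therefore cannot be told apart in this comparison.

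The libraries held about 90.3 to 123.6 M reads as estimated from the steps between low values. Every value under 0.5 RPKM had been replaced by 0.1 RPKM in the table, called the floor here. Of the 14277 genes, 13858 were above the floor in all 6 libraries and 419 were at the floor in at least 1. Markers of the tissue were present in all 9 libraries (Mbp of myelin, Gfap and Aqp4 of astrocytes, Snap25 of neurons, P2ry12 and Cx3cr1 of microglia, and the posterior Hox genes Hoxb8, Hoxc8, Hoxc9 and Hoxc10). Chat, which makes acetylcholine in motor neurons, lay between 5.28 and 6.57 RPKM. The amount of blood RNA differed between libraries. The haemoglobin gene Hba-a1 stood at 1056 RPKM in control ASO replicate 1 and between 255 and 451 RPKM in the other 8.

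C9orf72 itself stood at 11.2, 11.7 and 10.6 RPKM in the control ASO libraries and at 2.68, 3.40 and 3.12 RPKM in those of the C9orf72 ASO. The saline libraries held 10.5, 11.4 and 11.5 RPKM, close to the control ASO, and every C9orf72 ASO library lay far below every other library. C9orf72 fell by 1.84 on the log2(RPKM + 0.1) scale (SE 0.08, adjusted p = 1.8e-06, limma with Benjamini-Hochberg adjustment). An exact permutation test of 3 libraries against 3 gave p = 0.10 (two-sided), the smallest it allows. The target gene went with the label in all 9 libraries.

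Neither partner of C9orf72 passed the test. Smcr8 was at 10.2, 10.4 and 10.3 RPKM in control ASO libraries and 9.66, 9.35 and 8.77 RPKM in C9orf72 ASO libraries. The groups did not overlap, but the difference of -0.15 on the log2 scale did not pass (SE 0.10, adjusted p = 0.49, limma), and the saline libraries spanned 7.99 to 11.1 RPKM. Wdr41 overlapped between the groups, at 12.1, 11.4 and 11.8 RPKM against 12.4, 12.2 and 11.8 RPKM (log2 difference 0.05, SE 0.05, adjusted p = 0.694). Of 12 genes for this complex and for the start of autophagy, C9orf72 was the only one past an unadjusted p under 0.05 in either direction. The remaining 11 included the kinases Ulk1, Ulk2 and Tbk1, their partners Atg13, Atg101 and Rb1cc1, the receptor Optn and the GTPases Rab8a and Rab39b. Atg13, a subunit of the kinase complex that starts autophagy, ran from 16.5 to 17.7 RPKM in control ASO libraries and from 15.6 to 16.4 RPKM in C9orf72 ASO libraries (log2 difference -0.10, SE 0.06, adjusted p = 0.44).

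Beyond the target, the levels of most genes were close in the 2 groups. Of the 13858 genes above the floor in all 6 libraries, 92.8% differed by no more than 0.25 on the log2 scale and 99.5% by no more than 0.5. Only 10 of the 14277 genes passed an adjusted p under 0.05 (0.07%), 5 higher (0.035%) and 5 lower (0.035%). With 0.5 RPKM required in each of the 6 libraries, 7 genes passed, 5 higher and 2 lower. At an unadjusted p under 0.05 there were 2027 genes (14.2%), of which 919 were higher (6.44%) and 1108 lower (7.76%). The 3 libraries of one ASO lay entirely above or below those of the other in 22.2% of the genes, higher after the C9orf72 ASO in 10.3% and lower in 12%. Most of those separations were small. Among genes above the floor whose groups did not overlap, 1032 were at least 1.1-fold higher and 1099 at least 1.1-fold lower, while 21 were at least 1.5-fold higher and 7 at least 1.5-fold lower. At 2-fold or more, 4 were higher (AA474408, Lars2, Ccn1 and Rmrp) and 1, C9orf72, was lower.

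**Figure D1:**
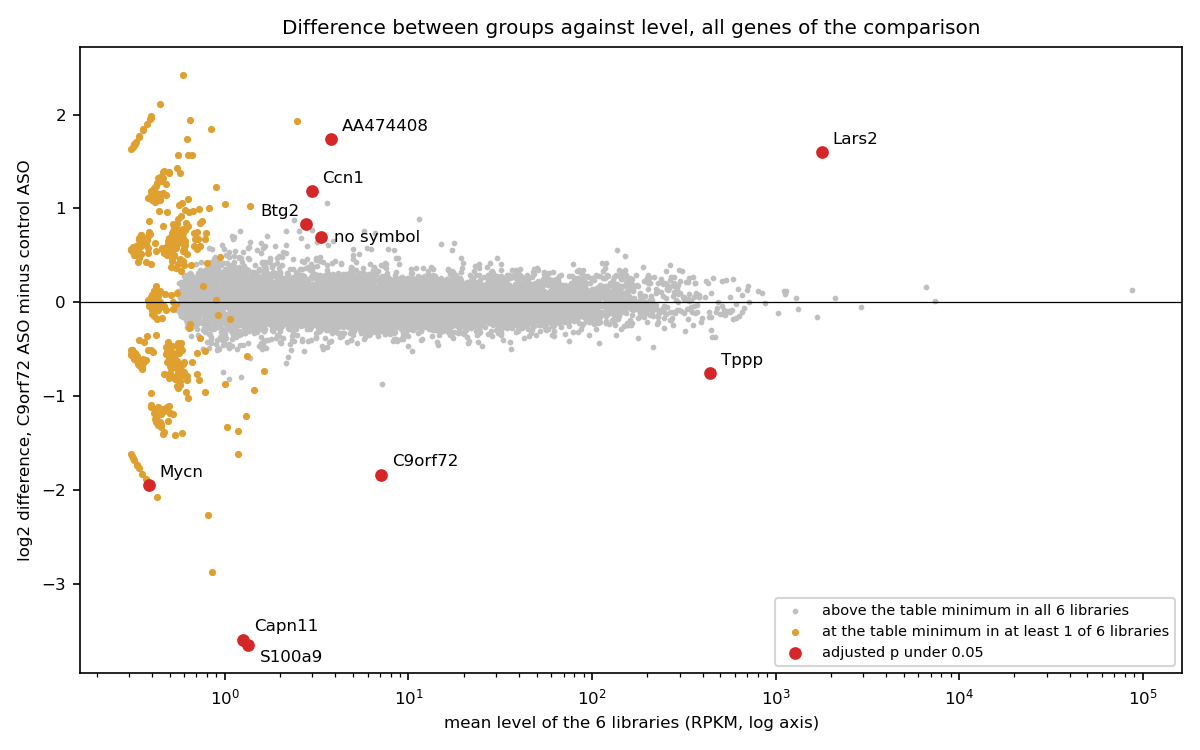
Mean level of each gene over the 6 libraries (x axis, RPKM, log scale) against its difference, C9orf72 ASO minus control ASO (y axis, log2(RPKM + 0.1)), with the 10 genes past an adjusted p under 0.05 marked. Most genes lie within 0.25 of 0 (92.8% of those above the floor), and the called genes stand outside that band at low, middle and high levels.

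Tppp was the most abundant gene that fell. It encodes a protein that bundles microtubules, and in the central nervous system it is found chiefly in oligodendrocytes, where it supports the growth of microtubules in myelin sheaths. It stood at 565, 540.4 and 552 RPKM in control ASO libraries and at 336, 312 and 336 RPKM in C9orf72 ASO libraries, with saline at 581, 582 and 523 RPKM. The 6 libraries without the C9orf72 ASO ran from 523 to 582 RPKM and lay well above the 3 with it, which were close to each other. Tppp fell by 0.75 on the log2 scale (SE 0.07, adjusted p = 8.3e-04, limma), and its difference from saline, which shares the same C9orf72 ASO libraries, was -0.78. The call held in each of 9 fits that left out 1 library.

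Other genes of myelin and of microtubules were examined beside it. Among 30 genes of myelin and oligodendrocytes, 2 were higher and 4 lower at an unadjusted p under 0.05, Tppp included (6.44% and 7.76% over all genes). The median log2 difference was 0.02 against -0.01 over all 14277 genes. Gjc3, a gap junction gene of glia, was at 186, 202 and 215 RPKM in control ASO libraries and at 161, 167 and 137 RPKM in C9orf72 ASO libraries (log2 difference -0.38, SE 0.09, adjusted p = 0.2, limma). Cnp, an enzyme of the myelin sheath, was at 334, 351 and 373 RPKM against 253, 282 and 325 RPKM (log2 difference -0.31, adjusted p = 0.257). Trf, which carries iron and is made by oligodendrocytes, was on the other side at 0.26 (adjusted p = 0.28), so that the list held members on both sides. Of 28 microtubule-binding and tubulin-modifying genes 23 had negative differences, beside 7739 of all 14277 genes, and 1 was called (Tppp). In this list 1 was higher and 3 lower at an unadjusted p under 0.05 (6.44% and 7.76% over all genes). The median was -0.10 (-0.06 with length and GC trends removed). Mapt, the gene of tau, was at -0.15 (adjusted p = 0.302), and Tppp3, a relative of Tppp, at 0.28 (adjusted p = 0.304). Its values were 115, 116 and 96.2 RPKM in control ASO libraries and 131, 118 and 148 RPKM in C9orf72 ASO libraries.

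Lars2 was the most abundant gene that rose. It encodes the mitochondrial leucyl-tRNA synthetase, which loads leucine onto its transfer RNA in mitochondria. It stood at 819, 808 and 994 RPKM in control ASO libraries and at 3453, 2909.9 and 1815 RPKM in C9orf72 ASO libraries. The groups did not overlap, but C9orf72 ASO replicate 3 was far closer to the controls than the other 2, and the saline libraries, at 1186, 1032 and 1299 RPKM, all lay above the control ASO. Lars2 rose by 1.60 on the log2 scale (SE 0.19, adjusted p = 0.00944, limma). Against saline the difference was 1.17 (adjusted p = 0.0566), and that of the control ASO from saline was -0.42. The call was lost in 3 of the 9 fits that left out a library (those missing control ASO replicate 1 or 2 or the second C9orf72 ASO library) and in the fit of the 6 libraries alone. Of 19 mitochondrial aminoacyl-tRNA synthetases it was the only one past an unadjusted p under 0.05, and the list had a median of -0.02. Mars2, the methionine enzyme, was at -0.23 (adjusted p = 0.357) and Fars2, the phenylalanine enzyme, at 0.14 (adjusted p = 0.406). Whether all reads counted under Lars2 came from its own mRNA was not tested.

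AA474408, about which no function is given here, stood at 2.12, 1.48 and 1.48 RPKM in control ASO libraries and at 4.73, 7.57 and 5.44 RPKM in C9orf72 ASO libraries. Its saline libraries, at 1.92, 1.75 and 1.75 RPKM, were like those of the control ASO, and each C9orf72 ASO library was above all 6 others. It rose by 1.74 on the log2 scale (SE 0.17, adjusted p = 0.00115, limma) and held in all 9 fits with a library left out. ENSMUSG00000078499, a gene ID with no symbol in the reference used, rose by 0.69 (SE 0.10, adjusted p = 0.022). It was at 2.46, 2.75 and 2.41 RPKM in control ASO libraries and at 4.54, 4.19 and 3.79 RPKM in C9orf72 ASO libraries. Its saline libraries, at 3.0, 2.62 and 2.48 RPKM, also lay below each of the latter. That call was lost in 4 of the 9 fits, those missing control ASO replicate 1 or 3, or replicate 1 or 2 of the C9orf72 ASO.

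**Figure D2:**
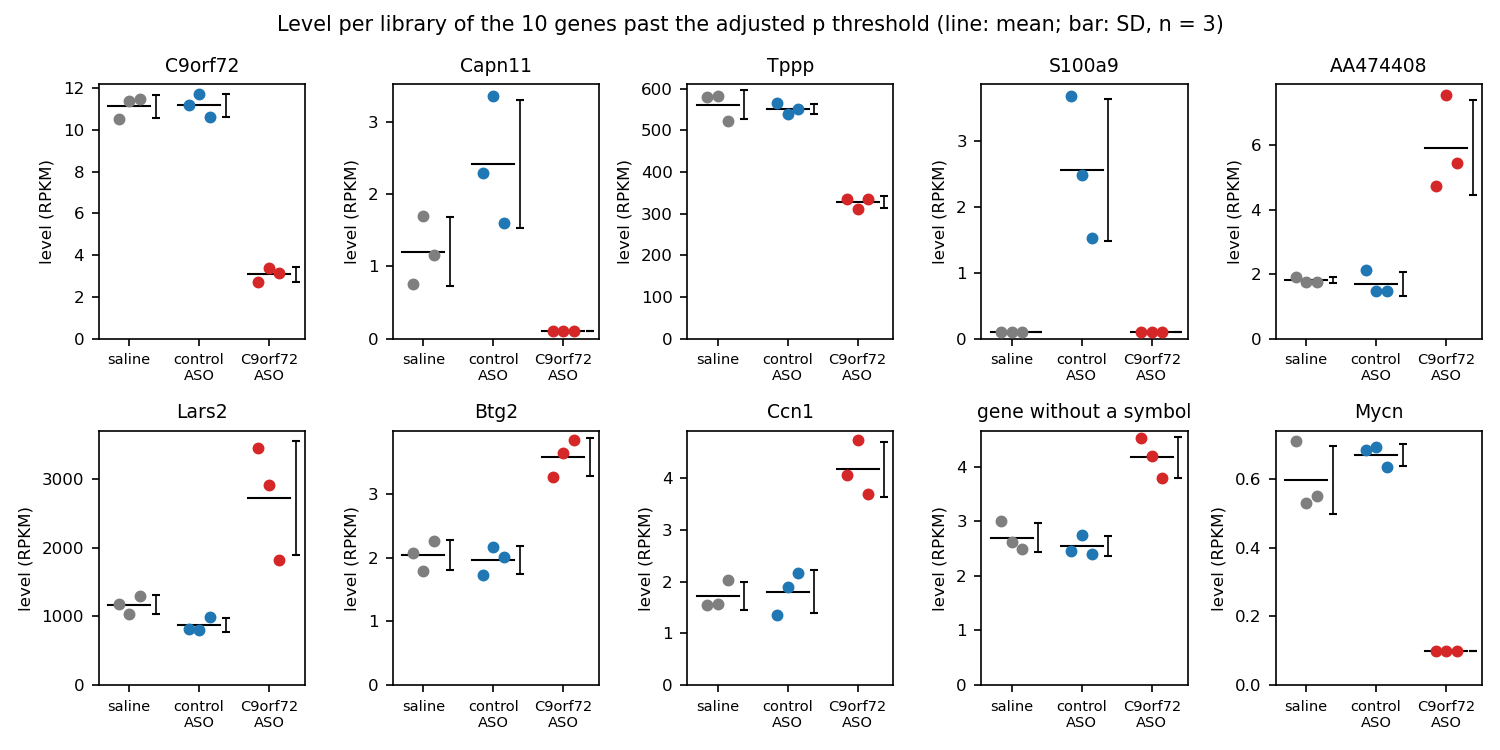
Level of each of the 10 called genes in every library (y axes, RPKM) by group (x axis: saline, control ASO, C9orf72 ASO), 1 point per library. C9orf72 and Tppp separate cleanly from both control groups, Lars2 is spread from 1815 to 3453 RPKM after the C9orf72 ASO, and S100a9 leaves the floor of 0.1 RPKM only after the control ASO.

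Ccn1 and Btg2, both immediate early genes, rose. Immediate early genes are switched on within minutes by growth factors, calcium or stress and need no new protein for it. Ccn1 encodes a secreted matrix protein that acts on integrins, and Btg2 an antiproliferative protein that promotes the shortening of mRNA tails. Ccn1 was at 1.35, 1.91 and 2.16 RPKM in control ASO libraries and at 4.07, 4.75 and 3.71 RPKM in C9orf72 ASO libraries, a rise of 1.18 on the log2 scale (SE 0.16, adjusted p = 0.022, limma). Btg2 was at 1.73, 2.16 and 2.01 RPKM against 3.26, 3.65 and 3.85 RPKM and rose by 0.84 (SE 0.11, adjusted p = 0.018). For both genes the saline libraries were in the range of the control ASO or just beside it (1.55 to 2.04 RPKM for Ccn1 and 1.79 to 2.26 RPKM for Btg2). The Ccn1 call was lost in 4 of the 9 fits (those missing replicate 1 or 2 of either ASO) and in the limma fit that used neither trend nor robust estimation (adjusted p = 0.0759). The Btg2 call was lost in 3 (those missing control ASO replicate 1 or 3 or the second C9orf72 ASO library).

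The 250 bases before the start sites of both genes are shown because these members of the list rose together. They are from RefSeq on GRCm38.p6, read 5′ to 3′ on the minus strand of chr3:145649986-145650235 for Ccn1 and of chr1:134079156-134079405 for Btg2. Capitals mark the cAMP response element TGACGTCA or its short form ACGTCA, searched on both strands.
Ccn1: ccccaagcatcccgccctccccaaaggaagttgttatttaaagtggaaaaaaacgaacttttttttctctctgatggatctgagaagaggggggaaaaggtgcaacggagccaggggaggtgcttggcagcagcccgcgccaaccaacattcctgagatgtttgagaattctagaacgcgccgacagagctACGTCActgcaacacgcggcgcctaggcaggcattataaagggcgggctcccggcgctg
Btg2: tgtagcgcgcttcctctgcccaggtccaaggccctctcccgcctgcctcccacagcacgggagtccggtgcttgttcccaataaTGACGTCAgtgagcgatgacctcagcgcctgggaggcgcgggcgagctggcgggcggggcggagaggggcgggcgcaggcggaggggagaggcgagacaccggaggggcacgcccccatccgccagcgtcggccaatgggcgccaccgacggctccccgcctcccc

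Btg2 holds the full element, whose first base is at position -166 from the start site, and 2 matches of the short form overlap within it. Ccn1 holds 1 match of the short form at -59 and no full element. Of 32851 RefSeq promoter windows of this length, 1.55% hold the full element and 6.47% the short form. The AP-1 motif TGANTCA (6.75% of windows) and the CArG box (1.47%) are in neither window. These matches are letters in a sequence and no measurement of a factor.

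The list of 27 immediate early genes did not move one way. At an unadjusted p under 0.05, 5 were higher and 3 lower (6.44% and 7.76% over all genes), and the median was 0.00. Dusp1, a phosphatase that switches off MAP kinases, was at 5.61, 7.06 and 7.57 RPKM in control ASO libraries and 7.82, 10.9 and 11.3 RPKM in C9orf72 ASO libraries (log2 difference 0.56, SE 0.14, adjusted p = 0.229, limma). Nr4a1, an orphan nuclear receptor, was at 0.39 (adjusted p = 0.246) and Ier2 at 0.45 (adjusted p = 0.246). Fos, the best known member, was at 6.06, 6.71 and 6.44 RPKM against 5.10, 5.57 and 5.58 RPKM, a difference of -0.24 (adjusted p = 0.297). Its values after the C9orf72 ASO lay within those of saline (4.73 to 6.10 RPKM). Egr1, at -0.12 (adjusted p = 0.532), overlapped between the groups. Apold1, an early gene of endothelium that is in none of the lists, was at 1.32, 2.29 and 1.46 RPKM and 2.93, 3.14 and 3.21 RPKM (log2 difference 0.87, SE 0.18, adjusted p = 0.168).

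The other 3 genes that fell were at the floor in all 3 C9orf72 ASO libraries. Their size is thus a bound, and their p may be too small, since such a group adds no spread. All 3 were among the genes compared only through the control ASO group, where they are high. Their p-values and held calls are therefore not taken as support for a difference. Capn11, a calpain protease, was at 2.30, 3.36 and 1.60 RPKM after the control ASO and at 0.758, 1.70 and 1.16 RPKM after saline. It was at least 4.84-fold lower after the C9orf72 ASO, counted against 0.5 RPKM (adjusted p = 5.8e-04, limma), and held in all 9 fits with a library left out. None of the 10 other genes for calpains, their small subunit and calpastatin passed an unadjusted p under 0.05 in limma, with Capn5 at -0.17 (adjusted p = 0.369) and Capns1 at 0.11 (adjusted p = 0.448). Mycn, a transcription factor of dividing progenitors, was at 0.685, 0.694 and 0.635 RPKM after the control ASO and 0.710, 0.531 and 0.552 RPKM after saline. It was at least 1.34-fold lower (adjusted p = 0.0349), all 6 values being just above the threshold of the table. That call was lost in 8 of the 9 fits, held only without C9orf72 ASO replicate 3, and ended with floor values raised to 0.5 RPKM.

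S100a9 and S100a8 encode the paired calcium-binding proteins of neutrophils. S100a9 was at 3.68, 2.48 and 1.52 RPKM after the control ASO and at the floor in the other 6 libraries, saline included. It entered the test only through the control ASO group, where it is high, so that its p-values are no support for a difference. It was at least 5.13-fold lower after the C9orf72 ASO (adjusted p = 0.00115, limma) and 3.65 higher on the log2 scale after the control ASO than after saline (adjusted p = 0.00574). In the 3 fits that left out a control ASO library it was not tested, and its call held in the 6 others. S100a8 followed the same order, at 2.28, 1.96 and 0.537 RPKM after the control ASO and at the floor elsewhere, without passing (adjusted p = 0.0905). Their difference between the 2 ASOs thus came with a departure of the control ASO libraries from saline, not of the C9orf72 ASO libraries. Of the other blood cell genes, Ptprc of all leukocytes was at 0.23 (adjusted p = 0.403) and Ly6c2 of monocytes at -0.13 (adjusted p = 0.478). The list of neutrophil and lymphocyte genes held 19 genes, of which 5 were in the table. Only 4 were among the genes compared, namely S100a9, S100a8, Ptprc and Ly6c2. The 8 red cell genes had a median of -0.22, which was 0.22 without control ASO replicate 1, the library with the most haemoglobin. The part of blood in the S100a9 difference was not tested.

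Capn11, Mycn, S100a9 and S100a8 belong to a wider set of genes measured in all 3 libraries of one ASO and at the floor in all 3 of the other. The 17 seen only after the C9orf72 ASO had a median level of 0.583 RPKM and a highest value of 1.82 RPKM, and none passed. Of these, 3 were also measured in each saline library, namely Stoml3, Lrrc43 and Fam129c. Stoml3, a membrane protein of touch-sensing neurons, was at 0.827, 0.712 and 0.535 RPKM after the C9orf72 ASO and 0.883, 0.519 and 0.666 RPKM after saline. For such genes it was the control ASO libraries that stood below both other groups. Pomc, the precursor of several peptide hormones, was at 0.512, 0.587 and 0.525 RPKM after the C9orf72 ASO and at the floor in the other 6 libraries. The 15 seen only after the control ASO held those 4 genes and also Top2a, a topoisomerase of dividing cells, at 0.550, 0.661 and 0.707 RPKM, which was at the floor in each saline library as well. Piezo1, a mechanically gated channel, was at 0.627, 0.539 and 0.578 RPKM after the control ASO and at 0.839, 0.700 and 0.533 RPKM after saline. A value this close to the threshold can pass to the floor with a small change in level.

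Among genes above the floor whose groups did not overlap, those with the smallest p that did not pass were named without a call. Among those higher were Rmrp, the RNA of a ribonuclease that acts in mitochondria and the nucleolus, at 2.36, 1.68 and 2.94 RPKM in control ASO libraries and 5.20, 5.15 and 4.26 RPKM in C9orf72 ASO libraries (log2 difference 1.06, SE 0.18, adjusted p = 0.087, limma). Ppp1r17, a phosphatase inhibitor gene, was at 1.09, 1.39 and 1.31 RPKM against 2.01, 2.38 and 1.97 RPKM (0.70, adjusted p = 0.0905). Gstk1, a mitochondrial and peroxisomal glutathione transferase, was at 0.32 (adjusted p = 0.109), and Mrpl30 of the mitochondrial ribosome at 0.33 (adjusted p = 0.115). For Gstk1 and Mrpl30 the control ASO differed from saline by -0.20 and -0.18 and the C9orf72 ASO by 0.12 and 0.16, so that saline lay between the ASO groups. Cntf, a survival factor for motor neurons that astrocytes and Schwann cells make, had the same order at 0.31 (adjusted p = 0.17). It was at 4.19, 4.25 and 4.25 RPKM after the control ASO, where saline gave 5.07, 4.70 and 4.72 RPKM and the C9orf72 ASO 5.67, 5.0 and 5.19 RPKM.

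On the lower side none of the genes named passed either. Hipk2, a nuclear kinase that acts on p53 and other factors, was at 42.4, 39.7 and 40.9 RPKM in control ASO libraries and 31.3, 31.1 and 28.9 RPKM in C9orf72 ASO libraries (log2 difference -0.43, SE 0.08, adjusted p = 0.0905, limma). Ankrd52, a regulatory subunit of protein phosphatase 6, was at 42.9, 43.4 and 44.2 RPKM against 34.8, 34.8 and 35.9 RPKM (-0.31, SE 0.05, adjusted p = 0.0905). In both genes the saline libraries (37.2 to 46.1 RPKM and 41.3 to 45.1 RPKM) lay above every C9orf72 ASO library. Nfia, a factor of astrocyte development, was at -0.38 (adjusted p = 0.115), Nova2, a splicing factor of neurons, at -0.35 (adjusted p = 0.11) and the nuclear factor Tox2 at -0.46 (adjusted p = 0.109). Slc7a5, which imports leucine and other large amino acids, was at 16.6, 16.4 and 16.2 RPKM against 12.4, 12.7 and 14.4 RPKM (-0.32, adjusted p = 0.115). Prkaca, the catalytic subunit of protein kinase A, was at -0.43 (adjusted p = 0.168), Scn4b, a sodium channel subunit, at -0.36 (adjusted p = 0.169) and Spry4, an inhibitor of growth factor signalling, at -0.47 (adjusted p = 0.168). Snora81, a small nucleolar RNA, was at -0.87 (adjusted p = 0.0905), with 7.26, 9.29 and 11.5 RPKM against 4.39, 5.97 and 4.75 RPKM.

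Microglia are the resident macrophages of the spinal cord. By count, their lists had more members higher at an unadjusted p under 0.05 than any other cell type list. The lists differ in size, and microglia were not alone on the higher side. Of 11 genes of ependyma and choroid plexus 1 was higher and 0 lower, with a larger median of 0.26. Of 4 skeletal muscle genes 2 were higher and 0 lower, with a median of 0.14. In bulk tissue, more cells of a type and more RNA per cell cannot be told apart. Of 21 genes of homeostatic microglia, 10 were higher and 0 lower at an unadjusted p under 0.05 in limma (6.44% and 7.76% over all genes), 0 passed the adjusted threshold, and the median was 0.18. Of 19 genes of activated microglia and macrophages, 10 were higher and 1 lower, 0 passed the adjusted threshold, and the median was 0.19. Both lists were chosen with earlier results of these libraries known.

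Tyrobp and C1qb came closest. Tyrobp, the signalling adaptor of TREM2 and related receptors, was at 12.5, 15.4 and 14.3 RPKM in control ASO libraries and 19.3, 21.7 and 21 RPKM in C9orf72 ASO libraries (log2 difference 0.56, SE 0.10, adjusted p = 0.0905, limma). C1qb, a chain of the complement component that tags synapses and debris, was at 24.9, 26.7 and 24.8 RPKM against 35.3, 35.0 and 36.0 RPKM (0.48, SE 0.08, adjusted p = 0.0905). The C9orf72 ASO libraries were close to each other in both genes, and the saline libraries (11.5 to 14.7 RPKM and 23.3 to 30.4 RPKM) lay below them. C1qb passed the threshold when only the 6 libraries were fitted, and also with length and GC trends removed. Its partners C1qa and C1qc were at 0.35 (adjusted p = 0.278) and 0.30 (adjusted p = 0.239).

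Other microglia genes varied in size. Fcrls, a surface receptor found in microglia, was at 4.52, 5.47 and 4.17 RPKM in control ASO libraries and 7.91, 7.23 and 6.16 RPKM in C9orf72 ASO libraries (log2 difference 0.58, SE 0.12, adjusted p = 0.168, limma). Trem2, a lipid receptor, was at 6.06, 6.64 and 6.37 RPKM against 8.90, 7.77 and 8.91 RPKM (0.42, adjusted p = 0.208). P2ry12, the ADP receptor that marks resting microglia, was at 14.1, 14.9 and 15.6 RPKM against 19.1, 17.3 and 16.7 RPKM (0.25, adjusted p = 0.234). In all 3 genes each C9orf72 ASO library was above each control ASO and saline library. Adgre1, which encodes the macrophage antigen F4/80, was at 0.69 (adjusted p = 0.19), Fcer1g at 0.40 (adjusted p = 0.168) and the checkpoint gene Lag3 at 0.63 (adjusted p = 0.17).

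Among activation genes, Lyz2, the lysozyme of macrophages, was at 3.65, 4.47 and 3.91 RPKM in control ASO libraries and 7.12, 5.53 and 5.42 RPKM in C9orf72 ASO libraries (log2 difference 0.57, SE 0.14, adjusted p = 0.208, limma). Its saline libraries, at 3.35, 2.70 and 2.33 RPKM, were lower than either ASO group. Ctss, a lysosomal protease, was at 0.30 (adjusted p = 0.234), Cd68 of the lysosomal membrane at 0.36 (adjusted p = 0.237) and Gpnmb, a glycoprotein of lipid-laden macrophages, at 0.57 (adjusted p = 0.247). Lgals3, a galectin, was at 0.74 (SE 0.29, adjusted p = 0.306) with 10.8, 8.17 and 6.10 RPKM after the C9orf72 ASO, so that 1 library carried much of its mean. Of 13 complement genes 5 were higher and 0 lower at an unadjusted p under 0.05 (6.44% and 7.76% over all genes), with a median of 0.11. C1qb was counted both there and among the homeostatic microglia genes. Of 20 interferon response genes 2 were higher and 0 lower, with a median of 0.07 that was 0.02 without C9orf72 ASO replicate 1 and 0.03 with length and GC trends removed. Mx2 was at 0.43 (adjusted p = 0.259).

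**Figure D3:**
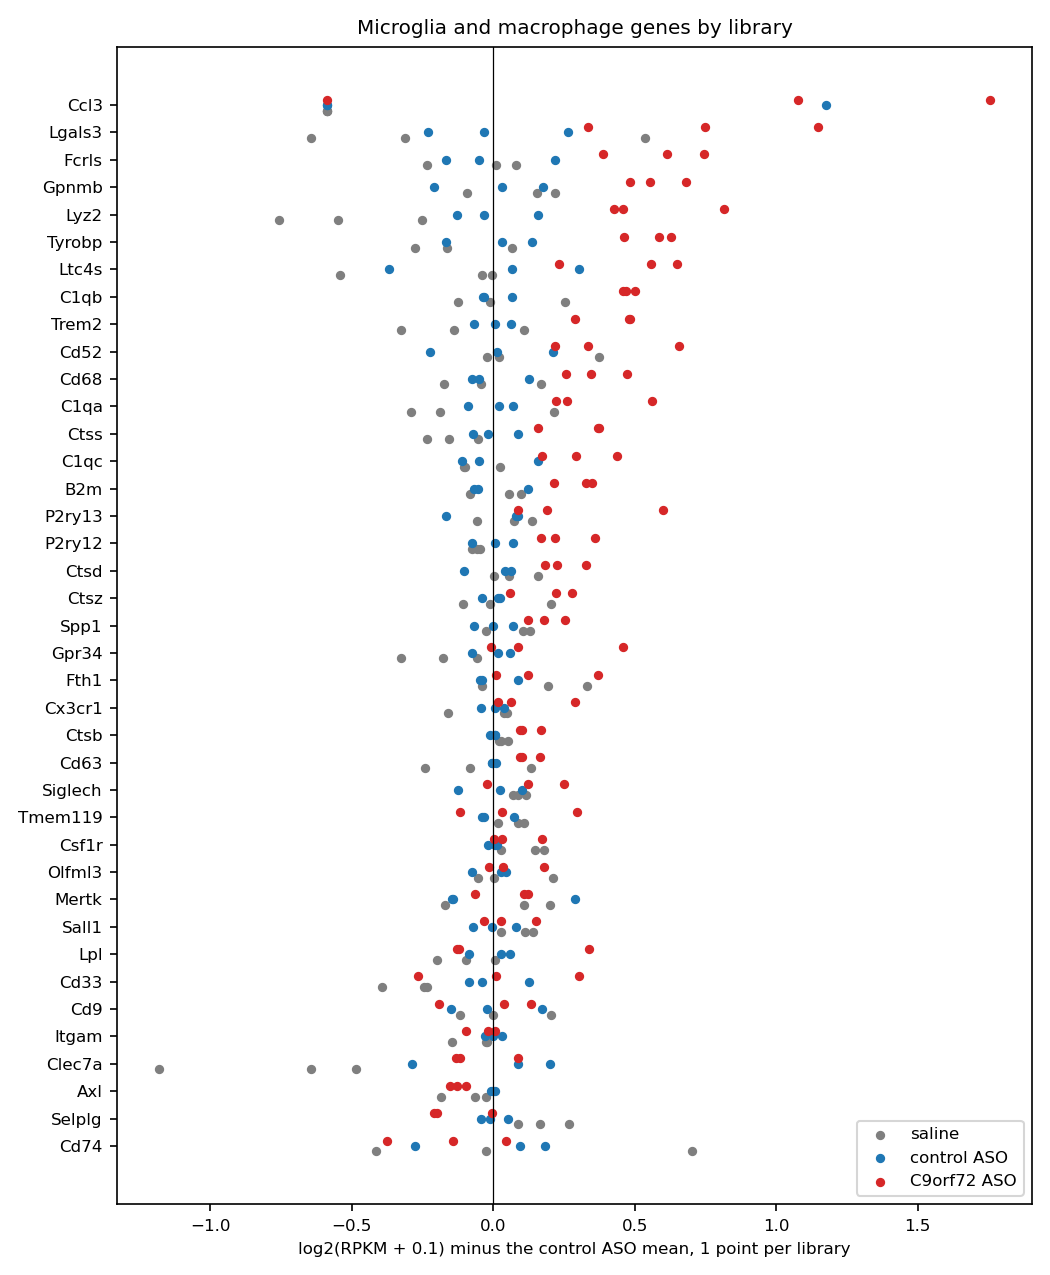
Level of genes of the homeostatic and activated microglia lists in every library, as log2(RPKM + 0.1) minus the mean of the control ASO libraries (x axis), 1 point per library and 1 line per gene (y axis). In Tyrobp, C1qb, Fcrls, Trem2 and P2ry12 the 3 C9orf72 ASO points lie right of all others, while genes such as Itgam and Tmem119 overlap.

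By library, the median of the homeostatic microglia genes was 0.29, 0.11 and 0.11 above the control ASO mean in C9orf72 ASO replicates 1, 2 and 3, and 0.07, -0.03 and -0.06 in the saline libraries. Replicate 1 was thus the highest, and without it the median difference was 0.09. The activated list gave 0.22, 0.10 and 0.21 after the C9orf72 ASO and 0.13, -0.08 and -0.08 after saline. Saline replicate 1 overlapped the C9orf72 ASO libraries in that list.

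Astrocyte genes were divided. Of 25 genes of reactive astrocytes 4 were higher and 0 lower at an unadjusted p under 0.05 (6.44% and 7.76% over all genes), with a median of 0.13. Relative to the control ASO mean, the list median was 0.18, 0.08 and 0.16 in the C9orf72 ASO libraries. In the saline libraries it was 0.16, 0.00 and -0.04, so that saline replicate 1 lay above C9orf72 ASO replicate 2. The C9orf72 ASO differed from saline by a median of 0.04. Vim, an intermediate filament gene also used by other cells, was at 39.6, 47.3 and 44.3 RPKM in control ASO libraries and 62.5, 54.7 and 52.0 RPKM in C9orf72 ASO libraries (log2 difference 0.36, SE 0.11, adjusted p = 0.247, limma), with saline between 39.8 and 51.6 RPKM. Gfap, the filament gene that marks reactive astrocytes, was at 669, 676 and 666 RPKM against 759.8, 664 and 783 RPKM (0.13, adjusted p = 0.595), and the groups overlapped. Of 20 genes of astrocyte identity 9 had positive and 11 negative differences. The C9orf72 ASO libraries lay wholly above the control ASO in 4 and wholly below in 4 (10.3% and 12% over all genes). In this list 0 were higher and 4 lower at an unadjusted p under 0.05 (6.44% and 7.76% over all genes), with a median of -0.06. It was -0.01 with control ASO replicate 2 left out, -0.02 with C9orf72 ASO replicate 1 left out and -0.04 with length and GC trends removed. Slc6a11, a GABA transporter of astrocytes, was at 85.1, 82.3 and 89.2 RPKM against 57.2, 65.9 and 70.8 RPKM (-0.41, SE 0.10, adjusted p = 0.22), and saline ran from 65.7 to 86.1 RPKM. Gja1, the main gap junction gene of astrocytes, was at -0.28 (adjusted p = 0.234).

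Among neuronal genes most differences were small and negative. Of 35 pan-neuronal genes 32 had negative differences, beside 7739 of all 14277 genes. In this list 0 were higher and 7 lower at an unadjusted p under 0.05 (6.44% and 7.76% over all genes). Of the 35 genes 0 passed the adjusted threshold in limma, and the median was -0.10. Syn1, a synaptic vesicle protein, was at 90.8, 80.6 and 91.6 RPKM in control ASO libraries and 63.8, 71.6 and 75.8 RPKM in C9orf72 ASO libraries (log2 difference -0.32, SE 0.09, adjusted p = 0.237). Vamp2, of the vesicle fusion machinery, was at -0.25 (adjusted p = 0.241). The median of the list was -0.14, -0.08 and -0.06 in the C9orf72 ASO libraries and -0.09, -0.01 and -0.05 in the saline libraries, relative to the control ASO mean. The control ASO libraries themselves were at 0.03, -0.05 and 0.03. Saline replicate 2 thus lay above control ASO replicate 2, saline replicate 3 was level with it, and saline replicate 1 lay among the C9orf72 ASO libraries. The C9orf72 ASO differed from saline by a median of -0.05.

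The 21 genes of cholinergic motor neurons had 5 higher and 1 lower at an unadjusted p under 0.05 (6.44% and 7.76% over all genes) and a median of -0.05. That median turned to 0.01 when C9orf72 ASO replicate 1 was left out. It was -0.01 and -0.02 with control ASO replicates 1 and 2 left out in turn, and -0.09 and -0.08 with replicate 3 of the control ASO and of the C9orf72 ASO left out. Chat, at -0.05 (adjusted p = 0.839, limma), overlapped between the groups. Calca, which encodes the peptide CGRP of motor and sensory neurons, was at 13, 12 and 10.3 RPKM in control ASO libraries and 16.8, 16.5 and 21.3 RPKM in C9orf72 ASO libraries (0.62, SE 0.13, adjusted p = 0.171). Its saline values ran from 10.2 to 14.1 RPKM, below each C9orf72 ASO library. Tac1, the substance P gene of sensory and dorsal horn neurons, was at 16.2, 18.7 and 16.2 RPKM against 22.4, 21.7 and 21.9 RPKM (0.37, adjusted p = 0.19), but saline reached 22.3 RPKM.

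Most vascular genes had negative differences, 20 of 25 and 10 of 12 in the lists below, beside 7739 of all 14277 genes. Of 25 genes of endothelium and the blood-brain barrier 0 were higher and 5 lower at an unadjusted p under 0.05, with a median of -0.17, and of 12 genes of pericytes and smooth muscle 0 were higher and 5 lower, with a median of -0.14 (6.44% higher and 7.76% lower over all genes). No gene of either list passed the adjusted threshold in limma. The C9orf72 ASO libraries lay wholly below the control ASO in 2 endothelial genes and in 3 of pericytes and smooth muscle (12% over all genes). Flt1, a receptor for vascular endothelial growth factor, was at 11.9, 11.8 and 8.11 RPKM in control ASO libraries and 7.82, 7.27 and 8.85 RPKM in C9orf72 ASO libraries (log2 difference -0.39, SE 0.13, adjusted p = 0.268). Control ASO replicate 3 overlapped the C9orf72 ASO libraries there, and its endothelial median was -0.23 where those of replicates 1 and 2 were 0.15 and 0.13. The endothelial median difference was -0.28 without that library, and -0.08, -0.09 and -0.11 without control ASO replicate 1, control ASO replicate 2 and C9orf72 ASO replicate 1. Notch3, a receptor of mural cells, was at 2.87, 2.43 and 2.49 RPKM against 2.04, 2.13 and 2.13 RPKM (-0.29, adjusted p = 0.238). Relative to the control ASO mean, the saline libraries had endothelial medians of 0.43, 0.11 and 0.18 and the C9orf72 ASO libraries -0.27, -0.21 and -0.03. The median difference from saline was -0.23 for the control ASO and -0.40 for the C9orf72 ASO. By library the groups overlapped. Control ASO replicate 3 lay below C9orf72 ASO replicates 2 and 3, and saline replicate 2 below control ASO replicates 1 and 2.

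The cytosolic ribosomal proteins were the list with the largest share of members on one side. All 77 had positive differences, 45 were higher and 0 lower at an unadjusted p under 0.05 (6.44% and 7.76% over all genes), 0 passed the adjusted threshold in limma, and the median was 0.22. Rpl32 was at 166, 169 and 161 RPKM in control ASO libraries and 216, 206 and 224 RPKM in C9orf72 ASO libraries (log2 difference 0.38, SE 0.10, adjusted p = 0.234). Its saline libraries were at 202, 159 and 213 RPKM, so that 2 of the 3 were near the C9orf72 ASO. The list median relative to the control ASO mean was 0.24, 0.19 and 0.27 in the C9orf72 ASO libraries and 0.24, -0.12 and 0.23 in the saline libraries. The nuclear genes of oxidative phosphorylation had the same order. Of 76 genes 25 were higher and 0 lower, with a median of 0.15, and the library medians were 0.08, 0.13 and 0.23 after the C9orf72 ASO and 0.14, -0.12 and 0.13 after saline. Sdhb, a subunit of succinate dehydrogenase, was at 70.2, 67.3 and 65.2 RPKM against 81.4, 83.4 and 82.0 RPKM (0.28, adjusted p = 0.237), with saline at 78.2, 64.0 and 78.7 RPKM.

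**Figure D4:**
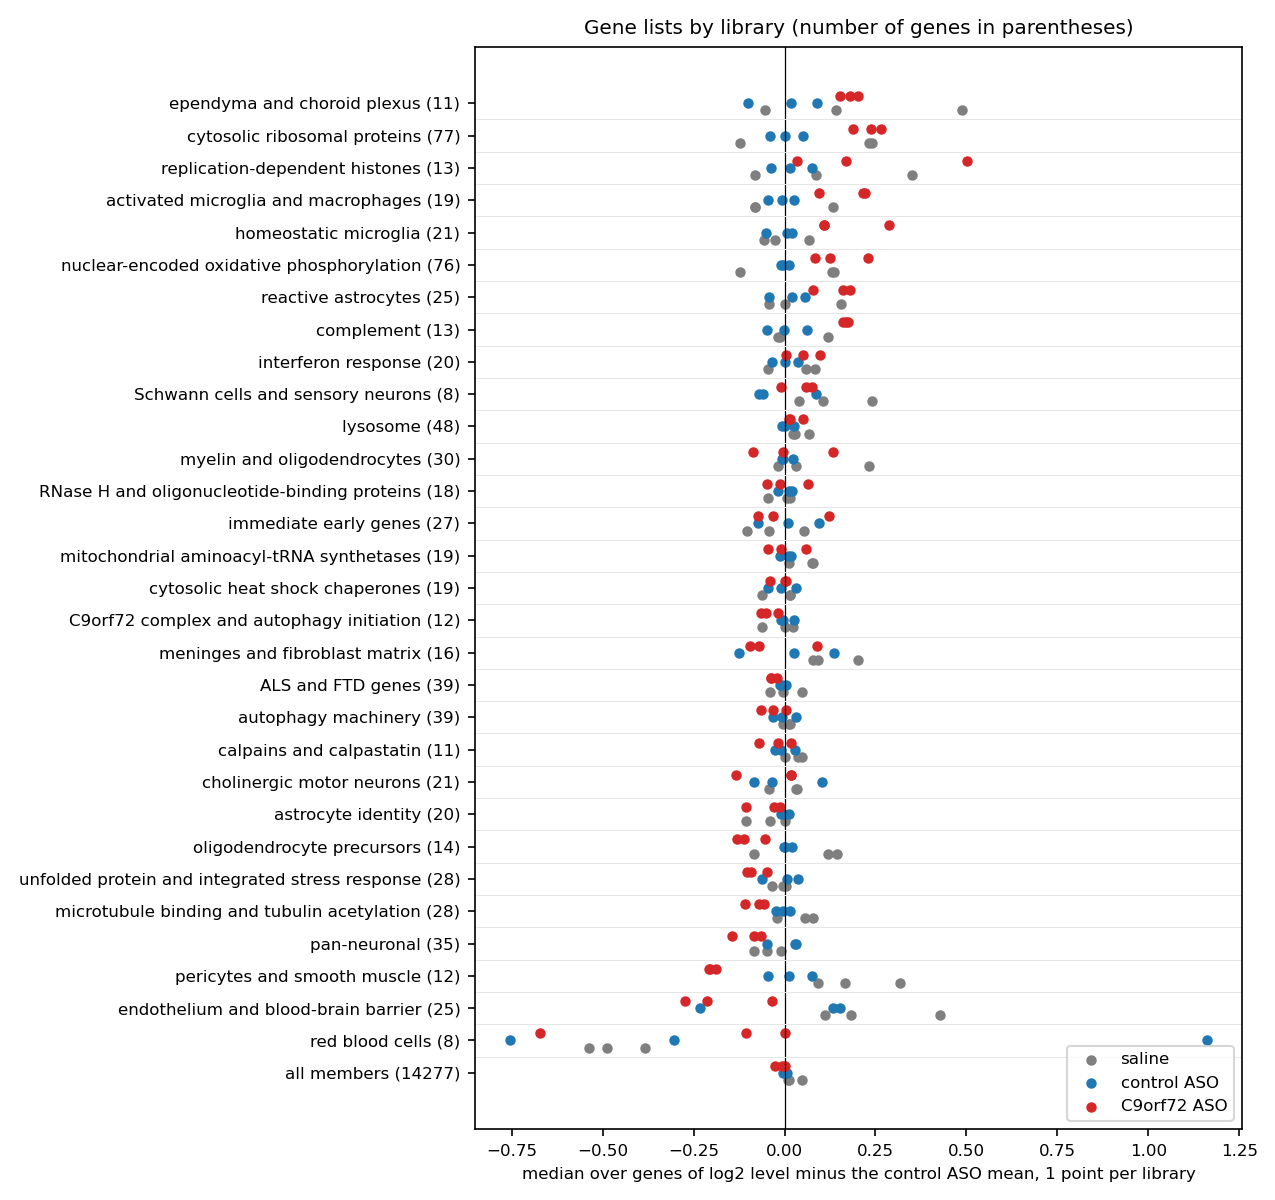
Median level of each gene list in every library, as log2(RPKM + 0.1) minus the mean of the control ASO libraries (x axis), 1 point per library and 1 line per list (y axis). In ribosomal proteins 2 saline points lie among the C9orf72 ASO points (0.24 and 0.23), whereas in homeostatic microglia the saline points (-0.06 to 0.07) lie below all 3.

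Genes of these lists are short, and level differences went with length across the table. With 13829 genes in 5 equal classes of exon length, the median log2 difference was 0.08 in the shortest and -0.07 in the longest class. In the shortest class 460 of 2766 genes were higher (16.6%) and 67 lower at an unadjusted p under 0.05, and in the longest 40 were higher and 377 lower. The correlation across genes, which are not independent replicates and share the same 6 libraries, was -0.25. The shortest class stood at 0.07, 0.05 and 0.15 in the C9orf72 ASO libraries and at 0.16, -0.05 and 0.09 in the saline libraries, relative to the control ASO mean, so that saline replicates 1 and 3 had the same trend and saline replicate 2 the opposite one. With length and GC trends removed, the median was 0.14 for ribosomal proteins, 0.05 for oxidative phosphorylation, 0.14 for homeostatic microglia, 0.15 for activated microglia and -0.06 for pan-neuronal genes. In the fit of single genes with both trends removed, 19 genes passed, 9 of the 10 calls among them. C1qb, Nfia and Taf15 were among the genes that passed there and not in the main fit. Both trends were removed together, so the part of length alone in single genes was not tested.

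**Figure D5:**
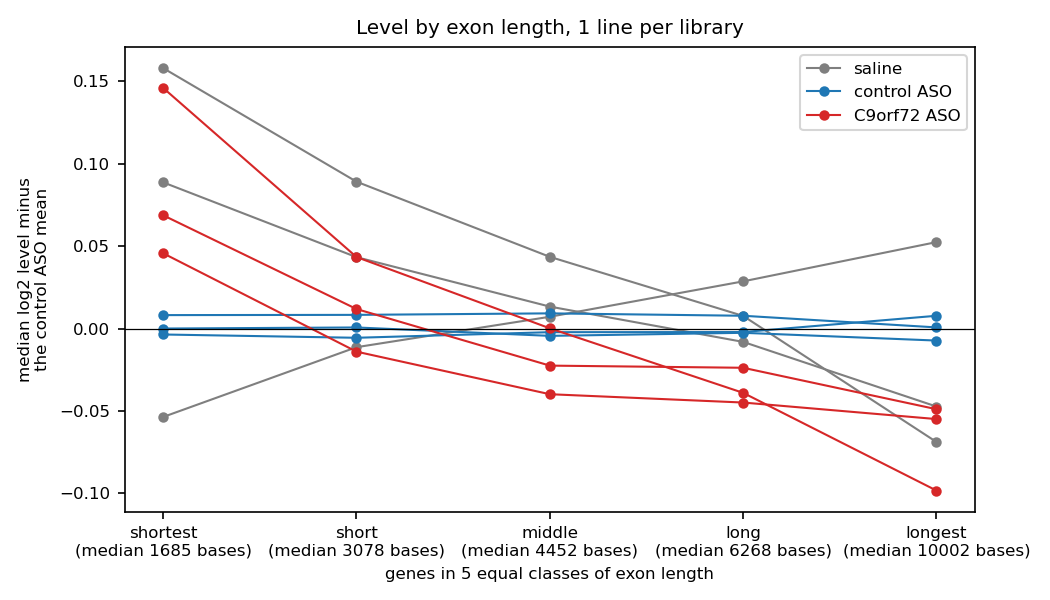
Median level of the genes in 5 classes of exon length (x axis, shortest to longest) in every library, as log2(RPKM + 0.1) minus the mean of the control ASO libraries (y axis), 1 line per library. The C9orf72 ASO lines and 2 of the 3 saline lines run down from short to long genes, C9orf72 ASO replicate 3 from 0.15 to -0.10, while saline replicate 2 runs up.

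Lists for autophagy, the lysosome and cell stress were examined because C9orf72 acts on autophagy and lysosomes, and no member passed the adjusted threshold in limma. At an unadjusted p under 0.05, of 39 genes of the autophagy machinery 0 were higher and 1 lower, with a median of -0.03, and Wipi2, which binds lipids on the forming autophagosome, was at 20.7, 21.3 and 19.5 RPKM in control ASO libraries and 18.7, 18.1 and 19.2 RPKM in C9orf72 ASO libraries (log2 difference -0.14, SE 0.05, adjusted p = 0.304, limma). Of 48 lysosomal genes 4 were higher and 1 lower, with a median of 0.03. The protease Ctsd was at 0.25 (adjusted p = 0.24), and it is also strongly made in microglia. Of 28 genes of the unfolded protein and integrated stress responses 0 were higher and 5 lower, with a median of -0.08. Syvn1, a ubiquitin ligase of the endoplasmic reticulum, was at -0.24 (adjusted p = 0.246), and Hyou1, a chaperone there, at -0.19 (adjusted p = 0.247). In either direction the shares were 2.56% for autophagy, 10.4% for the lysosome and 17.9% for the stress responses, beside 14.2% over all genes. The medians ranged from -0.05 to -0.01 for autophagy (nearest 0 without control ASO replicate 1), from 0.01 to 0.05 for the lysosome (lowest without control ASO replicate 3) and from -0.10 to -0.04 for the stress responses (nearest 0 without control ASO replicate 2).

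Of 39 genes linked to ALS and FTD, 1 was higher and 2 lower at an unadjusted p under 0.05 (6.44% and 7.76% over all genes). The list leaves out C9orf72 itself, and its median was -0.03. Taf15, an RNA-binding protein, was at 54.3, 56.9 and 55.2 RPKM in control ASO libraries and 46.8, 43.4 and 40.7 RPKM in C9orf72 ASO libraries (log2 difference -0.35, SE 0.07, adjusted p = 0.178, limma). Each C9orf72 ASO library was below each saline library (48.3 to 57.8 RPKM). Chmp2b, of the machinery that sorts membrane proteins to lysosomes, was at 36.9, 38.3 and 35.2 RPKM against 47.0, 41.4 and 39.5 RPKM (0.21, adjusted p = 0.26). Of 18 genes for RNase H and proteins that bind oligonucleotides 0 were higher and 3 lower, with a median of 0.01, among them Sfpq, a paraspeckle protein, at 69.6, 77.2 and 78.9 RPKM against 64.4, 65.3 and 64.9 RPKM (-0.21, adjusted p = 0.239). Of 19 cytosolic heat shock genes 0 were higher and 1 lower.

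One library had more weight than the others in the count of genes called. Without C9orf72 ASO replicate 3, 27 genes passed, 7 higher and 20 lower, and the 10 genes above were among them. Of the 17 others, Shank1, a scaffold of excitatory synapses, was at 35.6, 37.4 and 38.7 RPKM in control ASO libraries and 24.8, 27.0 and 33.1 RPKM in C9orf72 ASO libraries. Msi1, an RNA-binding protein of stem cells and astrocytes, was at 15.3, 17.4 and 16.1 RPKM against 11, 11.2 and 14.4 RPKM, and the microtubule kinase Mark2 at 13, 13.5 and 12.6 RPKM against 9.99, 10.0 and 11.5 RPKM. In each of these the third C9orf72 ASO library lay between the other 2 and the controls. Slc7a5, Setd1b, Mllt6, Raver1, Slc38a7, Szrd1 and Ppp1r3e also passed on the lower side there. Another 5 of the lower genes (Avpr1a, Hrc, Gm10069, Mirlet7c-1 and ENSMUSG00000086456) were at the floor in replicates 1 and 2 and measured in replicate 3. On the higher side Stoml3 and 3300002A11Rik were added, the second at the floor in replicate 3.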

How the data were processed

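RNA from spinal cord was measured in 9 strand-specific libraries in 3 groups. Per the submitters' processing notes, cutadapt 1.2.1, the aligner GSNAP and the build mm9 were used. No source used here names the counter, the annotation or the gene filter. The values the authors deposited are RPKM, a unit read from the values, since the header names none. Values under 0.5 RPKM stood at 0.1 in the deposited table. The depth estimate rests on genes of at most 350 bases, whose values times length were within 0.1 of a whole read in 61.0% to 78.9% of cases; 0.5 RPKM then stands for 45.2 to 61.8 reads per kilobase.

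Log2(RPKM + 0.1) values of all 9 libraries entered 1 limma fit with a mean trend, made robust (limma 3.58.1, statmod 1.5.0, R 4.3.3). Genes at 0.5 RPKM or more in at least 3 libraries were tested (14430, of which 153 are outside the 14277 compared), with Benjamini-Hochberg adjustment over all of them and a threshold of 0.05. The pseudocount understates the change of low genes, and the floor overstates it where a group reaches 0.1. Symbols were matched for 14321 of 14831 gene IDs, and 16 genes share all values with another. The fit was tested on simulated data.

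The members, the 33 gene lists and the tests were chosen with earlier results of these data known. Named were C9orf72, Smcr8 and Wdr41, every gene past the threshold, up to 12 genes on each side with the smallest p and up to 8 with the largest fold among those above the floor whose groups did not overlap, and from each list the members past the threshold or else the 3 with the smallest p. The other list members named, and the genes measured after 1 ASO alone, were chosen after their values were seen. Alternatives covered the filter, pseudocount, scaling, test setting, threshold, floor, length and GC trends, the samples in the fit and each library left out. Promoter sequences are from RefSeq (GRCm38.p6), and no other coordinates are given because the builds differ. A few genes are not reported here.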

Additional observations from a re-analysis of the deposited data

How the results depend on the processing

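C9orf72 kept its direction and its call under every alternative run. The count of 10 genes was 19 with limma without trend and robust estimation, 16 with no filter on low values, 19 with length and GC trends removed, 26 at an adjusted p threshold of 0.1 and 6 at 0.01, and 7 to 27 with 1 library left out. The 27 came without C9orf72 ASO replicate 3. With only the 6 libraries compared, 10 genes passed, 8 of them among the same 10, with Hipk2 and C1qb in place of Lars2 and Mycn. None of the genes that changed sign had passed the threshold. With 1 library left out, Hoxc10 ranged from -0.03 (without control ASO replicate 3) to 0.39, Hba-a2 from -0.81 to 0.22 and Hba-a1 from -0.80 to 0.22 (both highest when control ASO replicate 1 was missing), Chat from -0.12 to 0.02, Mbp from -0.01 to 0.11, Aqp4 from -0.01 to 0.07, Pvalb from -0.01 to 0.05 and Acta1 from -0.08 to 0.11. Chat was at 0.01 and Pvalb at -0.13 with length and GC trends removed, Mbp at -0.26 with quantile normalization, and Acta1 at 0.01 with that or with median log ratio scaling. The cause of these changes was not tested. Several list medians near 0 changed sign or moved by over 1.5 times with 1 library left out. Those of myelin ran from -0.06 (without C9orf72 ASO replicate 3) to 0.08 (without C9orf72 ASO replicate 2), of immediate early genes from -0.03 to 0.05 (control ASO replicates 1 and 2), of synthetases from -0.04 (C9orf72 ASO replicate 3) to 0.01 (control ASO replicate 1), of ALS and FTD genes from -0.04 to -0.02 (C9orf72 ASO replicates 3 and 2) and of genes for RNase H and oligonucleotide binding from -0.02 to 0.02 (C9orf72 ASO replicates 1 and 2). No paired analysis was possible because the labels give no replicate numbers that the groups share. The floor of 0.5 RPKM, not depth, set the limit for low genes.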

Other observations

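Values of some zinc finger genes that lie near each other are given here, chosen after they were seen, and none passed the threshold. Rex2, Zfp600 and Zfp980 encode zinc finger proteins and are close neighbours in the RefSeq annotation, within a stretch of 39 genes on 1 chromosome, of which 5 were among the genes compared. Rex2 was at 1.23, 1.49 and 1.195 RPKM after the control ASO and 2.15, 2.07 and 1.84 RPKM after the C9orf72 ASO (log2 difference 0.60, SE 0.11, adjusted p = 0.0912, limma). Zfp600 was at 1.04, 1.253 and 0.890 RPKM against 1.68, 1.72 and 1.52 RPKM (0.59, adjusted p = 0.19), and Zfp980 at 0.988, 1.26 and 0.910 RPKM against 1.78, 1.60 and 1.48 RPKM (0.58, adjusted p = 0.19). In all 3 genes each C9orf72 ASO library was above each control ASO and saline library. The other members of the stretch were Zfp992 at 0.16 (adjusted p = 0.547) and Gm13034 at -0.03 (adjusted p = 0.865). Over 353 genes with a Zfp symbol, the median was 0.04, with 35 higher and 20 lower at an unadjusted p under 0.05 (6.44% and 7.76% over all genes). Genes of this kind can be near-identical in sequence, so that their reads may be shared between them, which was not tested.

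By kind of gene, the 44 microRNA genes had a median log2 difference of -0.14, with library medians of -0.23, -0.05 and -0.29 after the C9orf72 ASO and 0.11, -0.16 and 0.10 after the control ASO, relative to the control ASO mean. Control ASO replicate 2 thus lay below C9orf72 ASO replicate 2. The 39 small nucleolar RNA genes had a median of 0.11, and their library medians ran from -0.31 to 0.22 in the control ASO and from -0.22 to 0.67 in the C9orf72 ASO, so that libraries differed more within groups than the groups did. The 95 long intergenic RNA genes had a median of 0.04, with 11 higher and 2 lower at an unadjusted p under 0.05 (6.44% and 7.76% over all genes).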
